A study of Mus musculus with 6 samples.

Results

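The 10 genes described here are the milk protein genes Csn1s1, Csn1s2a, Csn2, Csn3, Wap and Lalba, the prolactin receptor gene Prlr, the prolactin-activated transcription factor genes Stat5a and Stat5b, and the L-amino acid oxidase gene Lao1. They were chosen by symbol, and all 10 were among the 24054 gene rows of the count table. Messenger RNA was sequenced from mouse salivary glands in 2 groups of 3 libraries. K5-RANKL mice carried both a K5-rtTA and a TetO-RANKL transgene, so that a doxycycline-dependent activator under the keratin 5 promoter switched on RANKL in cells that use that promoter, while controls were monogenic. Mice of both groups were given doxycycline for 2 weeks from 9 weeks of age, and each library pooled the glands of 5 mice. Which transgene the controls carried, and the strain, sex and glands taken, are not stated in the sources used here.

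Prolactin, a hormone of the pituitary, binds the receptor Prlr at the cell surface. The receptor-bound kinase JAK2 then phosphorylates STAT5A and STAT5B, which enter the nucleus and bind DNA at palindromic TTCNNNGAA motifs. In the mammary gland this pathway switches on the caseins, whey acidic protein and alpha-lactalbumin during pregnancy and lactation, and RANKL is itself a signal of mammary alveolar growth downstream of progesterone and prolactin.

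Total counts per library lay between 13875951 and 17921815. The few very abundant salivary secretory transcripts weighed less on K5-RANKL libraries, and the normalization factors (trimmed mean of M values, TMM) were 0.708 ± 0.0293 for controls against 1.41 ± 0.0802 for K5-RANKL (SD over 3 libraries each). With TMM the median log2 fold change of all tested genes was 0.01, and with library totals alone it was 1.01. Changes below are on the TMM scale, in CPM (a gene's counts relative to the scaled size of its library), and a direction that turns with library totals is named. Tnfsf11, encoding RANKL, whose transgene and endogenous reads are counted together, held 41, 19 and 12 counts in controls and 16901, 7567 and 15524 in K5-RANKL libraries. All 6 listed acinar marker genes were detected in every library and called lower, beside 32.1% of all genes tested. Their summed level was 95828 to 98990 CPM in controls and 16783 to 24604 CPM in K5-RANKL libraries. All 4 tested granular duct markers were also called lower (2 with library totals), with sums of 22109 to 23813 against 6559 to 8712 CPM. Of 5 ductal luminal markers, Krt18 and Krt19 were called higher and Krt7, Foxi1 and Ascl3 lower. With library totals 3 of these were higher and 2 lower. In bulk tissue, fewer cells of a type and less RNA per cell cannot be told apart. Nothing in the labels ties a library to a separate experiment, so p-values measure the spread between pools.

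The upstream sequences of the 3 casein genes that had almost no counts in controls are shown because nearly all of their counts lay in K5-RANKL libraries. They are the 250 bases before each start in the promoter set, from RefSeq on GRCm38.p6, with matches to TTCNNNGAA in capitals. For Csn2 that start differs slightly from the gene limit given below (87699429), so its window reaches a few bases into the gene span. This motif reads the same on both strands. The Csn1s1 window is chr5:87665958-87666207 (plus strand), the Csn2 window chr5:87699426-87699675 (minus strand) and the Csn1s2a window chr5:87774200-87774449 (plus strand).
Csn1s1: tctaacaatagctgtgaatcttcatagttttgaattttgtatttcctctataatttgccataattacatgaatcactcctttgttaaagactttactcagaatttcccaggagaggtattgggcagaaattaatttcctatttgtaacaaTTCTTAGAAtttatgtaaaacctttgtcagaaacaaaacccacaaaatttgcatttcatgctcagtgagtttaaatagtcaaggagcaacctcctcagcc
Csn2: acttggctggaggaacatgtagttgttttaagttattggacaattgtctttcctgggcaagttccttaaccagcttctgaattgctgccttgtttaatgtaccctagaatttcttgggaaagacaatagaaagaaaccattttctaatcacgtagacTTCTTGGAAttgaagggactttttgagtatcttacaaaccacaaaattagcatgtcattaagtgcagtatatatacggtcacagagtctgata
Csn1s2a: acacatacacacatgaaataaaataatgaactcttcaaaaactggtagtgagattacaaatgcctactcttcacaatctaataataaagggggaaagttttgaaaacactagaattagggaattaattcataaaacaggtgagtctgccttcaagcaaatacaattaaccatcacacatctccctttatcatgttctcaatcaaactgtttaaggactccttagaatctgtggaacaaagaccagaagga
The Csn1s1 window held 1 match, beginning at position −100 from the start, and the Csn2 window held 1, beginning at position −93. The Csn1s2a window held none. Over all promoters in the same table, 7.02% of 32851 windows of this length held a match. For 9 of the 10 genes, all but Csn3, the table held 13 windows, of which 3 had a match. The third was 1 of 3 windows of Prlr (chr15:10223656-10223905), beginning at position −110. A match describes the letters only.

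Beta-casein transcripts were higher in K5-RANKL glands, at a low level. Csn2, encoding beta-casein (Entrez 12991, chromosome 5 from 87692619 to 87699429 in GRCm38), held 2, 0 and 3 counts in controls and 261, 123 and 141 in K5-RANKL libraries. No K5-RANKL library came near a control. Its log2 fold change was 5.70 (SE 0.46, edgeR adjusted p = 1.31e-07), a rise from 0.14 ± 0.124 to 7.99 ± 2.46 CPM (SD, n = 3 each). With only 5 control counts, the ratio of pooled counts was 55.3 with a 95% counting interval of 23.5 to 171, and without K5-RANKL 1 it was 44.5 (18.8 to 138). These intervals cover counting error only.

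Csn1s1, encoding alpha-S1-casein (Entrez 12990, chromosome 5 from 87666208 to 87682578), had no count in any control and 179, 15 and 16 counts in K5-RANKL libraries. The groups did not overlap, but K5-RANKL 1 held most of the counts, at 7.43 CPM against 0.803 and 0.746 CPM in the others. Against 3 counts over the control group, the ratio of pooled counts was 36.8, and 8.70 without K5-RANKL 1. These ratios cover neither counting error in the K5-RANKL libraries nor the spread between pools. The gene was not called (edgeR adjusted p = 0.259). It was called by DESeq2 (adjusted p = 0.000696) and by edgeR without K5-RANKL 1 (adjusted p = 7.7e-05), and the 13 alternatives gave adjusted p-values between 7.7e-05 and 0.385.

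Csn1s2a, encoding an alpha-S2-like casein (Entrez 12993, chromosome 5 from 87774450 to 87788798), had no count in any control and 14, 1 and 1 counts in K5-RANKL libraries. Here too K5-RANKL 1 was the high library, and the others rest on a single read each. Against 3 counts over the control group, the ratio of pooled counts was 2.81, with the same limits. Without K5-RANKL 1 the gene was under 3 counts. The gene had too few counts for the main test; with no filter on low counts its adjusted p was 0.0441 in edgeR. Csn1s2b, the neighbouring alpha-S2-like casein gene, had 0 counts in all 6 libraries.

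The whey genes were at the edge of detection. Wap, encoding whey acidic protein (Entrez 22373, chromosome 11 from 6635483 to 6638654), had no count in any control and 2, 2 and 1 in K5-RANKL libraries. Lalba, encoding alpha-lactalbumin, the partner of B4galt1 in lactose synthase (Entrez 16770, chromosome 15 from 98480400 to 98482934), had none in controls and 0, 1 and 1 in K5-RANKL libraries. Lao1, encoding an L-amino acid oxidase that is secreted in mouse milk (Entrez 100470, chromosome 4 from 118961967 to 118968910), had none in controls and 2, 0 and 0 in K5-RANKL libraries. None of the 3 was tested, and a difference was not detectable at this depth. With no filter their edgeR adjusted p-values were 0.152, 0.393 and 0.396. A count of 0 allows up to 0.235 to 0.295 CPM in a control library and 0.125 to 0.161 CPM in a K5-RANKL library, from 3 counts. Of all 24054 rows, 1.38% had 0 counts in every control and a count in every K5-RANKL library, and Csn1s1, Csn1s2a and Wap were among them.

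**Figure D1:**
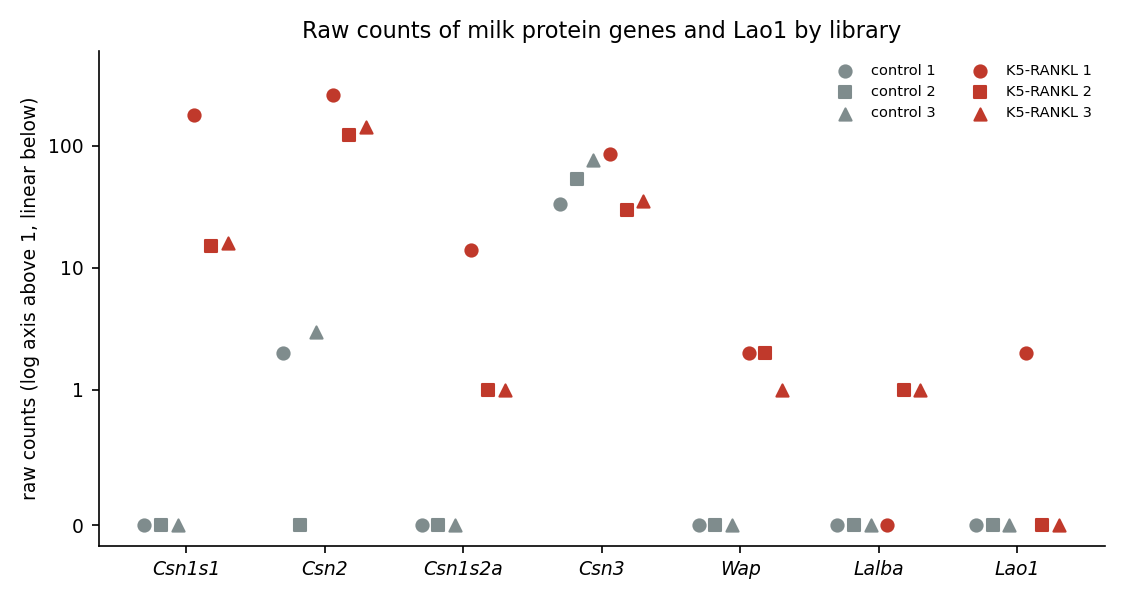
Raw counts (y axis, logarithmic above 1 and linear below) of the 6 milk protein genes and Lao1 in each library; grey points are controls, red points K5-RANKL libraries, and the marker shape gives the library number. Csn2 lies at 0 to 3 counts in controls and at 123 to 261 in K5-RANKL libraries, and K5-RANKL 1 is the highest library for Csn1s1, Csn2, Csn1s2a and Csn3.

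Csn3, encoding kappa-casein, which keeps casein micelles in suspension (Entrez 12994, chromosome 5 from 87925579 to 87932550), was present in both groups, with 33, 53 and 77 counts in controls and 85, 30 and 35 in K5-RANKL libraries. On the TMM scale these were 3.04, 5.20 and 6.02 CPM against 3.53, 1.61 and 1.63 CPM, so that the groups overlapped. Csn3 fell by 1.06 (SE 0.35, edgeR adjusted p = 0.0216), but stood at −0.06 with library totals (adjusted p = 0.891). Leaving out any of control 2, control 3, K5-RANKL 2 and K5-RANKL 3 also ended the call, where the adjusted p was 0.0703, 0.0995, 0.0672 and 0.057. Without K5-RANKL 1 the value was −1.56. The 14 alternatives gave adjusted p-values between 6.71e-05 and 0.891.

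The position of Csn3 limits its counts. It lies on the plus strand inside the span of the noncoding gene 1700066N21Rik on the minus strand, and the annotated exons of the pair share 0 bases. 1700066N21Rik held 4337, 6002 and 8263 counts in controls and 852, 426 and 362 in K5-RANKL libraries, and fell by 4.44 (SE 0.39, edgeR adjusted p = 0.000546). In controls, Csn3 counts were 0.761, 0.883 and 0.932% of those of 1700066N21Rik, and in K5-RANKL libraries 9.98, 7.04 and 9.67%. The strand setting of the counting is not stated in the sources used here, so reads of unspliced 1700066N21Rik RNA cannot be told apart from Csn3 reads, and their part in the Csn3 counts was not tested.

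The casein locus, from the start of Csn1s1 to the end of Csn3, spans 266 kb of chromosome 5 and holds 9 genes of the table. Of these, Csn2 was called higher, and Odam, 1700066N21Rik and Csn3 were called lower. Csn1s1 was not called, and Csn1s2a, Csn1s2b, Prr27 and Gm7337 had too few counts to test. In the wider list of locus neighbours, which adds salivary genes and other genes on either side, 0 of 8 tested genes were called higher and 5 were called lower, with a median of −0.85. Over all 14044 genes tested, 34.2% were called higher and 32.1% lower, with a median of 0.01. At an unadjusted p under 0.05 edgeR also had 0 higher, and DESeq2 and voom had 0. Without control 2, and with no filter, 1 was called higher in edgeR. With library totals 4 were called higher and 2 lower, beside 83.5% and 4.97% of all genes. Prol1, a salivary mucin-like gene beyond Csn3, fell by 1.78 (SE 0.17, edgeR adjusted p = 5.23e-08) from 65432 ± 5610 to 19114 ± 3962 CPM.

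**Figure D2:**
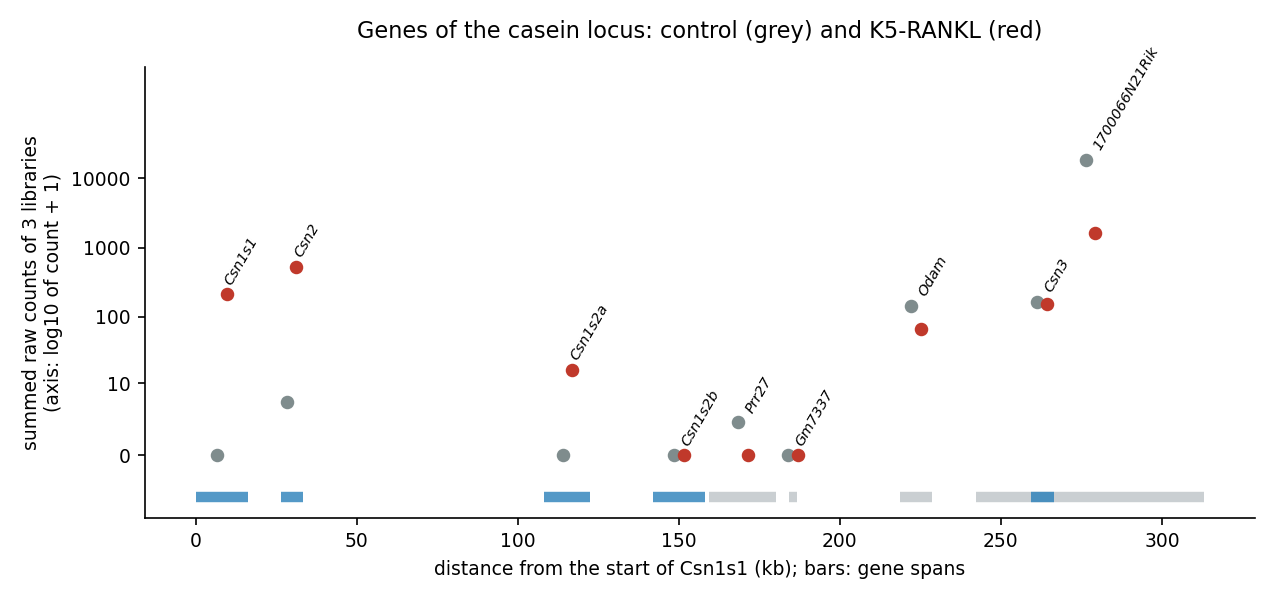
Summed raw counts of 3 libraries (y axis, log10 of count plus 1) of the 9 genes of the casein locus by distance from the start of Csn1s1 in kb (x axis); grey points are controls, red points K5-RANKL libraries, set 1.5 kb to either side of each gene's middle, and bars below show gene spans with caseins in blue. Red points lie above grey ones for Csn1s1, Csn2 and Csn1s2a, and below them for Odam and 1700066N21Rik. They are also below for Prr27 (0 against 2 control counts) and slightly for Csn3 (150 against 163).

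Within a library the shares of the casein transcripts do not depend on scaling. Csn3 took 94.3, 100 and 96.2% of the counts of the 4 detected casein genes in controls, and 15.8, 17.8 and 18.1% in K5-RANKL libraries. The groups did not overlap (two-sided exact permutation test p = 0.1, the smallest that 3 against 3 allows). Csn2 took 48.4, 72.8 and 73.1% in K5-RANKL libraries, and no more than 5.71% in any control.

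The mix of caseins in K5-RANKL 1 stood apart from that in K5-RANKL 2 and 3. Csn1s1 took 33.2% of casein counts in K5-RANKL 1 (exact 95% binomial interval 29.2 to 37.4), against 8.88% (5.05 to 14.2) in K5-RANKL 2 and 8.29% (4.81 to 13.1) in K5-RANKL 3. These intervals cover counting error within a library only, and the spread between pools was not tested. Csn3, with 85 counts, and Lao1, with 2, were also highest in K5-RANKL 1 among these 3 libraries. Lalba, with 0 counts there and 1 in each of the others, was not.

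Markers of other tissues were summed in the same libraries. Of all genes tested, 34.2% were called higher and 32.1% lower. The 5 adipocyte markers stood at 306, 301 and 259 CPM in K5-RANKL libraries and at 212 to 366 CPM in controls, and 0 of 5 were called in edgeR (1 lower at an unadjusted p under 0.05 and by DESeq2, 0 by voom). The 4 skeletal muscle markers stood at 130, 144 and 93.7 CPM in K5-RANKL libraries and 7.76 to 77.2 CPM in controls, with 0 called in edgeR, by DESeq2, by voom or at an unadjusted p under 0.05. With library totals 4 of the adipocyte and all 4 of the muscle markers were called higher, as were 83.5% of all genes tested. The 6 leukocyte markers stood at 1720, 1711 and 1617 CPM against 307 to 367 CPM, with 4 called higher and 0 lower (0 lower also by DESeq2, by voom and at an unadjusted p under 0.05). The 5 basal and myoepithelial markers stood at 837, 468 and 802 CPM against 292 to 303 CPM, with the basal genes Krt5, Krt14 and Trp63 called higher and the contractile genes Acta2 and Cnn1 called lower; with library totals 4 were called higher and 0 lower (0 lower also at an unadjusted p under 0.05). The 4 stromal and vessel markers stood at 686, 588 and 625 CPM against 144 to 189 CPM, all 4 called higher. No marker list was made for mammary epithelium, and sums of this size cannot show whether a few cells of another tissue were present. The part of any of these cells, or of mammary cells, in the casein counts was not tested.

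**Figure D3:**
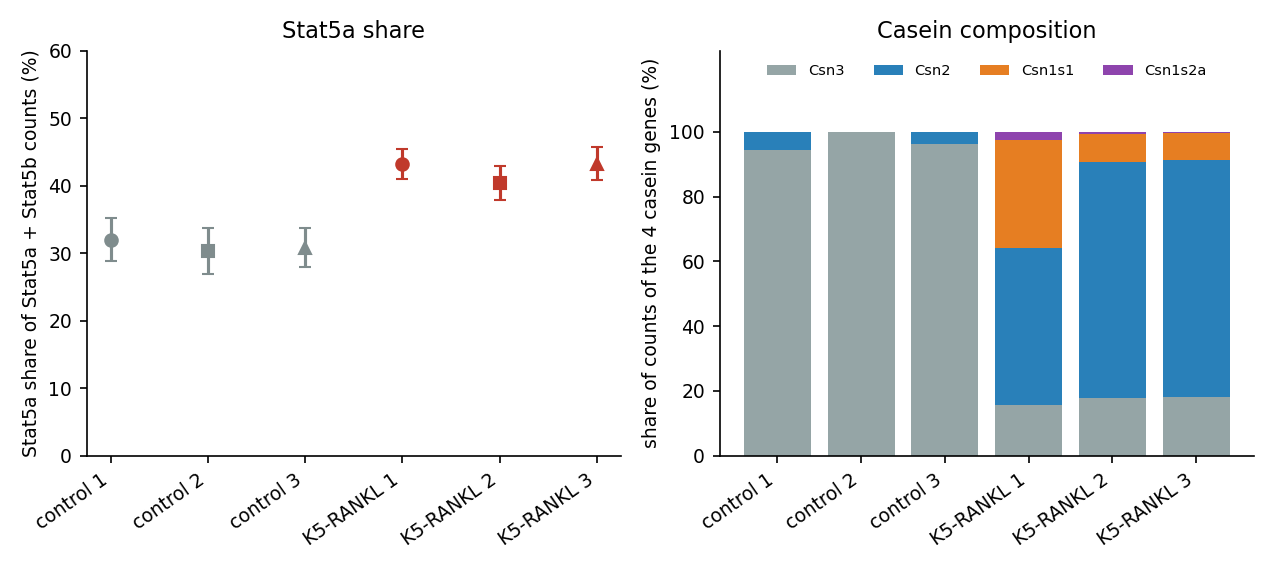
Left, share of Stat5a in the counts of Stat5a and Stat5b (percent) in each library with exact 95% binomial intervals, which cover counting error only; right, shares of 4 casein genes in their summed counts (percent) in each library. Stat5a takes 30.3 to 32.0% in controls and 40.4 to 43.3% in K5-RANKL libraries, and Csn3 takes at least 94.3% of casein counts in controls and at most 18.1% in K5-RANKL libraries. Csn3 counts may hold reads of 1700066N21Rik.

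Transcripts of the ligand were not detected in the gland, and those of the receptor were lower on the TMM scale. Prl, encoding prolactin, had 0 counts in all 6 libraries. Prlr (Entrez 19116, chromosome 15 from 10177238 to 10349190) held 569, 560 and 601 counts in controls and 736, 550 and 561 in K5-RANKL libraries. On the TMM scale the controls stood at 52.4, 55.0 and 47.0 CPM and the K5-RANKL libraries at 30.5, 29.4 and 26.1 CPM, without overlap. Prlr fell by 0.84 (SE 0.09, edgeR adjusted p = 1.75e-07), 1.79-fold. With library totals it stood at 0.16 in the other direction and was not called (adjusted p = 0.168; 5.07e-14 to 0.168 over its 14 alternatives), with overlapping groups at 36.5 ± 3.51 CPM (controls) and 40.5 ± 3.76 CPM (K5-RANKL). Its share of the counts of Prlr, Stat5a and Stat5b, which no scaling touches, was 40.6, 43.3 and 37.2% in controls and 27.7, 27.5 and 25.8% in K5-RANKL libraries (two-sided exact permutation test p = 0.1, the smallest possible). The table gives 1 value per gene, so the long and short forms of the receptor cannot be told apart.

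Stat5a (Entrez 20850, chromosome 11 from 100859351 to 100885169), the STAT5 gene on which mammary alveolar development mainly depends, held 266, 222 and 312 counts in controls and 829, 587 and 699 in K5-RANKL libraries. These were 24.5, 21.8 and 24.4 CPM against 34.4, 31.4 and 32.6 CPM, without overlap. Stat5a rose by 0.48 (SE 0.09, edgeR adjusted p = 0.000103), and was called higher in all 14 alternatives, at 0.42 to 1.48. Its annotated exons share 72 bases with Stat3 on the opposite strand, 1.01% of its exon bases.

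Stat5b (Entrez 20851, chromosome 11 from 100780731 to 100859004), known for its part in growth hormone signalling, runs the other way, with 346 bases between the starts of the pair. It held 566, 511 and 702 counts in controls and 1088, 866 and 916 in K5-RANKL libraries. On the TMM scale the controls stood at 52.2, 50.2 and 54.9 CPM and the K5-RANKL libraries at 45.2, 46.3 and 42.7 CPM, close together but without overlap. Stat5b fell by 0.23 (SE 0.08, edgeR adjusted p = 0.0121), and with library totals it was called higher, at 0.77 (adjusted p = 6.89e-08). The call was lost without control 3 (adjusted p = 0.0533) or K5-RANKL 3 (adjusted p = 0.0763), and the 14 alternatives gave adjusted p-values between 6.89e-08 and 0.0763.

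The balance of the 2 STAT5 genes shifted in every K5-RANKL library, whatever the scaling. Stat5a took 32.0, 30.3 and 30.8% of the counts of both genes in controls and 43.2, 40.4 and 43.3% in K5-RANKL libraries. The mean share was 31.0% ± 0.868 for controls and 42.3% ± 1.65 for K5-RANKL (SD, n = 3 each; two-sided exact permutation test p = 0.1, the smallest possible). The groups did not overlap. The genes are close copies of each other: 14.7% of the 50-base words in Stat5a transcripts also occur in Stat5b transcripts, and 11.1% the other way, so part of the reads could be split or dropped between them.

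**Figure D4:**
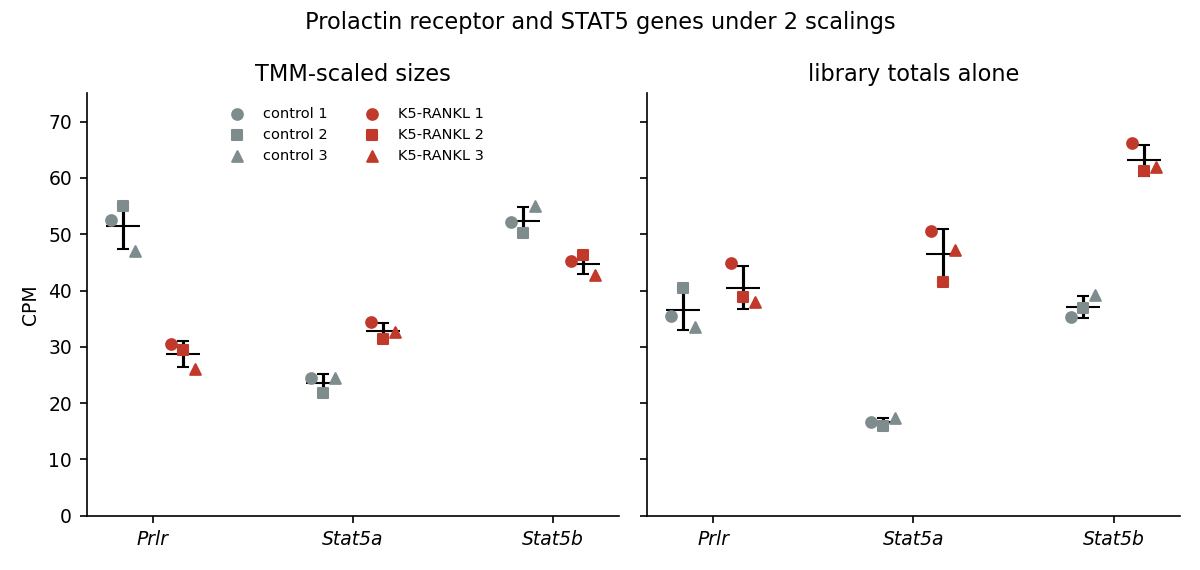
CPM (y axis) of Prlr, Stat5a and Stat5b in each library with TMM-scaled sizes (left) and with library totals alone (right); points are libraries (controls grey, K5-RANKL red) and bars give the mean and SD of 3 libraries. Stat5a is higher in K5-RANKL libraries in both panels, while Prlr and Stat5b are lower on the left and not on the right.

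Of the 10 genes, 6 passed the low-count filter. Of these 2 were called higher (Csn2 and Stat5a), 3 lower (Prlr, Stat5b and Csn3) and 1 was not called (Csn1s1). Over all 14044 genes tested, 34.2% were called higher and 32.1% lower, and 66.2% in either direction, so calls were common throughout the transcriptome. With library totals 3 of the 6 that passed were called higher (Csn2, Stat5a and Stat5b), against 83.5% of all genes tested. The groups did not overlap for 5 of the 6, against 70.4% of all tested genes.

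Levels of different genes were set side by side per kilobase of transcript, using the median length of the annotated coding transcripts. In controls Prlr stood at 20.1 CPM per kb, Stat5b at 10.2, Stat5a at 6.31, Csn3 at 3.78 and Csn2 at 0.158. In K5-RANKL glands Prlr stood at 11.2, Csn2 at 9.04, Stat5a at 8.77, Stat5b at 8.71, Csn1s1 at 2.16 and Csn3 at 1.79 CPM per kb. In K5-RANKL 1, Csn2 stood at 12.2 CPM per kb, with Prlr at 11.9, Stat5a at 9.21 and Stat5b at 8.79. In K5-RANKL 2 and 3 Csn2 stood at 7.44 and 7.43 CPM per kb, below Prlr, Stat5a and Stat5b, which stood between 8.31 and 11.5. The order of genes depends on the lengths used. For Prlr the median transcript has 2557 bases, but all its annotated exons hold 15339. For Stat5a these were 3738 and 7133 bases, and for Csn3 1258 and 4152. Levels over all exon bases were not computed. The group means of Wap, Lalba and Lao1 were at or below 0.143 CPM per kb.

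Other genes of the pathway were read from lists. Of 11 tested genes among related cytokine ligands and receptors, 9 were called higher and 1 lower, beside 34.2% and 32.1% of all genes. Their median was 1.31, beside 0.01 over all genes. Most are receptors of leukocytes; Csf2ra, a GM-CSF receptor chain, rose by 2.10 (SE 0.14) from 4.97 ± 1.24 to 21.2 ± 0.766 CPM, and Il2rg, the common gamma chain, by 1.31 (SE 0.09). The gene called lower was Ghr, the growth hormone receptor and the closest relative of Prlr in the list, which fell by 1.08 (SE 0.08, edgeR adjusted p = 3.26e-09) from 89.7 ± 4.87 to 42.4 ± 3.84 CPM. With library totals Ghr stood at −0.09 and was not called.

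Of 17 kinases, adaptors and phosphatases, 12 were called higher and 1 lower, beside 34.2% and 32.1% of all genes, with a median of 0.69. Jak2, the kinase bound to Prlr, held 267, 310 and 350 counts in controls and 1658, 1223 and 1689 in K5-RANKL libraries. It rose by 1.37 (SE 0.09, edgeR adjusted p = 9.49e-10), from 27.5 ± 2.91 to 71.0 ± 6.89 CPM without overlap. Ptpn1, a phosphatase that acts on JAK2, rose by 0.98 (SE 0.07). Sos1, a Ras exchange factor, fell by 0.23 (SE 0.09, adjusted p = 0.0344) and was called higher with library totals, at 0.76. Leaving out control 2 (−0.21), control 3 (−0.20), K5-RANKL 1 (−0.17) or K5-RANKL 3 (−0.25) ended its call, which left 0 of the list lower in edgeR, as also by DESeq2.

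Of 4 other STAT genes, 3 were called higher and 0 lower, beside 34.2% and 32.1% of all genes, with a median of 0.65. At an unadjusted p under 0.05, by DESeq2 and by voom, 0 were lower as well. Stat3, the main STAT of IL-6 family signals, rose by 1.10 (SE 0.08) from 94.2 ± 3.77 to 201 ± 12.5 CPM, and Stat4, the STAT of IL-12 signals in lymphocytes, by 1.32 (SE 0.15) from 3.88 ± 0.257 to 9.76 ± 0.816 CPM. Stat2 was tested and not called (edgeR adjusted p = 0.248). Beside these, Stat5a moved by 0.48 and Stat5b by −0.23.

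Feedback regulators and STAT5 targets went both ways, with 9 of 18 called higher, 6 lower and 3 not called, and a median of 0.16. The shares over all genes were 34.2% higher and 32.1% lower. With library totals all 18 were called higher, as were 83.5% of all genes, and without K5-RANKL 3 the lower calls were 3. Socs3 and Socs1, inhibitors of JAK signalling that many cytokines induce, rose by 2.16 (SE 0.12) and 2.34 (SE 0.20). Cish and Socs2, the inhibitors most closely tied to STAT5, moved little. Cish stood at 36.8, 35.3 and 45.1 CPM in controls and 31.8, 36.6 and 27.6 CPM in K5-RANKL libraries, with overlap. It fell by 0.30 (SE 0.11, edgeR adjusted p = 0.0326) and was called higher with library totals, at 0.70. Socs2 stood at 27.7, 32.4 and 30.6 CPM against 31.7, 35.4 and 40.3 CPM, also with overlap, and rose by 0.24 (SE 0.10, edgeR adjusted p = 0.036). Leaving out control 3, K5-RANKL 1 or K5-RANKL 3 ended the Cish call, with adjusted p = 0.184, 0.0706 and 0.154 (3.42e-06 to 0.184 over its alternatives). Leaving out control 1, control 3, K5-RANKL 2 or K5-RANKL 3 ended the Socs2 call, with adjusted p = 0.144, 0.0754, 0.054 and 0.23, and by DESeq2 at 0.0777 (3.57e-10 to 0.23 over its alternatives). Socs7 and Pias2 fell by 0.49 (SE 0.08) and 0.39 (SE 0.09), and with library totals were called higher.

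Of 13 tested factors of mammary alveolar cells, 8 were called lower and 2 higher, beside 32.1% and 34.2% of all genes. Their median was −0.61. With library totals 4 were lower and 9 higher, beside 4.97% and 83.5% of all genes. Elf5, a transcription factor that acts with STAT5 in milk-producing cells and is also made in salivary gland, held 1622, 1421 and 1925 counts in controls and 759, 785 and 594 in K5-RANKL libraries. It fell by 2.12 (SE 0.13, edgeR adjusted p = 5.98e-08), from 147 ± 6.12 to 33.7 ± 7.42 CPM without overlap, and remained lower with library totals, at −1.13. Wnt4, a progesterone target in mammary epithelium, fell by 1.76 (SE 0.08). The largest change among the tested genes of this list was that of Pgr, the progesterone receptor gene. Pgr fell by 6.73 (SE 0.53, edgeR adjusted p = 0.000302) without overlap. Its counts were 1142, 541 and 723 for the control libraries, against 21, 9 and 13 for the K5-RANKL ones. Gata3 and Tfap2c, luminal transcription factors of the mammary gland, rose by 1.46 (SE 0.22) and 0.68 (SE 0.19).

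Among 22 tested genes of milk secretion other than the members, 12 were called higher, 5 lower and 5 not, with a median of 0.64. Of all genes tested, 34.2% were called higher and 32.1% lower. With library totals 17 of the list were called higher and 2 lower, beside 83.5% and 4.97% of all genes. Slc30a2, a zinc exporter of milk-secreting cells, held 1, 2 and 4 counts in controls and 740, 474 and 617 in K5-RANKL libraries, and rose by 7.05 (SE 0.23, edgeR adjusted p = 8.98e-14). Spp1, encoding osteopontin, which is secreted in milk and made by macrophages and many epithelia, rose by 6.40 (SE 0.12) from 2.17 ± 0.359 to 184 ± 15.1 CPM. Lpo, lactoperoxidase of milk and saliva, fell by 2.25 (SE 0.12) from 1210 ± 89.9 to 255 ± 43.8 CPM, and Folr1, a folate receptor, by 2.03 (SE 0.11). All 4 kept their direction with library totals.

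Of 7 tested genes of the amino acid oxidase and peroxide list, 3 were called higher and 4 lower, with a median of −1.32. The shares of all genes were 34.2% higher and 32.1% lower. Il4i1, an L-amino acid oxidase of immune cells related to Lao1, held 1, 0 and 1 counts in controls and 46, 43 and 42 in K5-RANKL libraries, and rose by 4.94 (SE 0.52, edgeR adjusted p = 1.98e-07). With 2 control counts, the ratio of pooled counts was 34.5, with a 95% counting interval of 9.36 to 288. Duox1 and Duox2 encode hydrogen peroxide producing oxidases that supply lactoperoxidase. Duox1 rose by 2.66 (SE 0.35) from 0.323 ± 0.133 to 2.09 ± 0.146 CPM, while Duox2 fell by 1.78 (SE 0.14) from 54.0 ± 5.15 to 15.8 ± 3.24 CPM, both also with library totals.

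**Figure D5:**
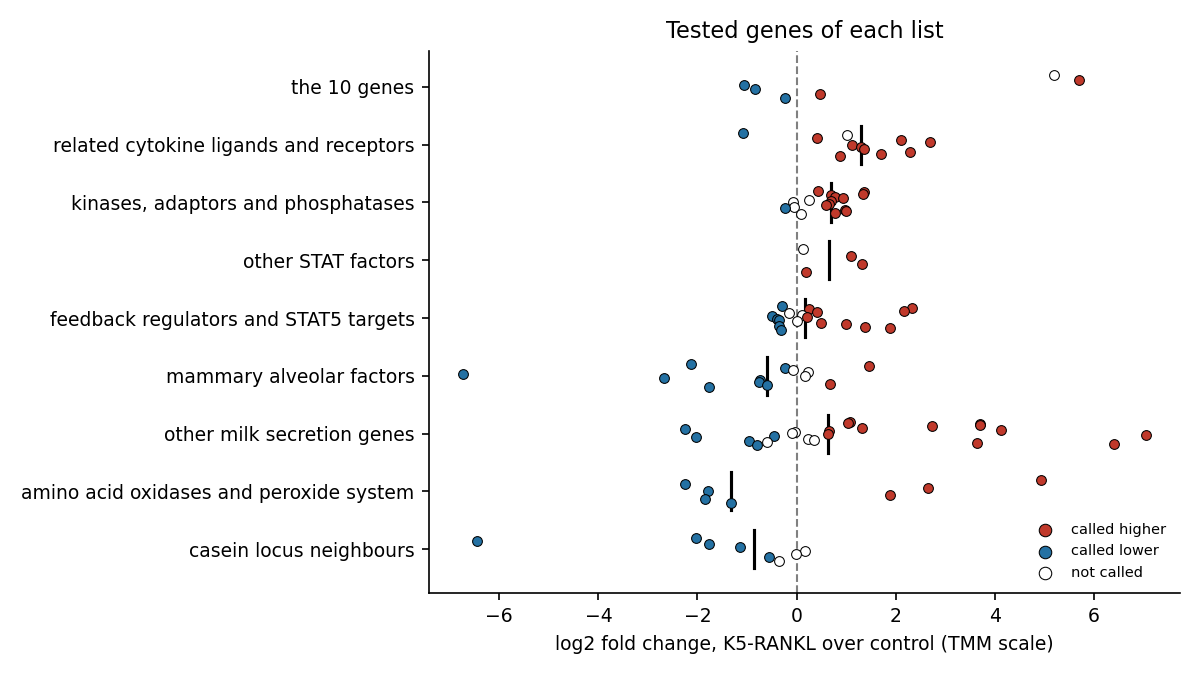
Log2 fold change, K5-RANKL over control on the TMM scale (x axis), of every tested gene of each list (y axis); red points were called higher, blue points lower and open points not called, black bars are list medians and the dashed line is the median of all tested genes. Csn1s1, with 0 control counts, is drawn at 5.20, the log2 ratio of its pooled counts against 3 counts over the control group. Without K5-RANKL 1 that ratio is 3.12. Receptor and kinase genes lie mostly right of the line and mammary alveolar factors mostly left.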

How the data were processed

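RNA was made into stranded poly(A) libraries from 250 ng, per the labels' protocols. The authors deposited raw read counts per gene; STAR and mm10 are named in the submitters' processing notes, and the counting tool, annotation and strand setting are not stated in the sources used here. Libraries within a group differed by a chi-square of 6.26 to 38.3 per gene, so none was a copy. Counts were filtered with filterByExpr (minimum count 10; 14044 genes left), scaled by TMM and tested over all genes with edgeR 4.0.16 (robust quasi-likelihood F-test, two-sided, Benjamini-Hochberg, threshold 0.05) in R 4.3.3, without covariates. Standard errors were taken as the absolute log2 fold change over the root of F. Ratios for genes without a control count use 3 counts over the control group and the observed K5-RANKL counts. Alternatives were RLE, upper-quartile and library-total scaling, TMM without the 20 most abundant genes, DESeq2 1.42.0, limma 3.58.1 voom, other filters and leaving out each library. Positions are from RefSeq, transcript lengths from GENCODE M21, both on GRCm38, the assembly of mm10. The test was checked on simulated data. The genes and lists were chosen with earlier results of these data known. Named genes are all 10 members, the 2 called genes with the smallest p in each direction of each list, and partners of members (such as Jak2, Cish and Elf5); others were named after their values were seen. An item that this rule takes in is not reported here.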

Additional observations from a re-analysis of the deposited data

How the results depend on the processing

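No paired analysis was possible because the labels give no replicate numbers that link libraries across groups. Scaling decided most. With library totals 11733 genes were called higher and 698 lower, in place of 4799 and 4505, and 0 of the 10 genes were called lower in edgeR (0 also at an unadjusted p under 0.05) in place of 3 (3 also by DESeq2 and by voom). On that scale Prlr stood at 0.16, Stat5b at 0.77, Cish at 0.70, Sos1 at 0.76, Socs7 at 0.51, Pias2 at 0.60 and Grsf1 at 0.44, each reversed from the TMM scale. Leaving out 1 library at a time, 1 to 3 of the 10 genes were called lower, the 1 being without control 3 or K5-RANKL 3, where Prlr remained; genes called higher numbered 4444 to 4764 and lower 4144 to 4466. With at least 50 counts required in 3 libraries Csn1s1 was not tested. Csn2 and Stat5a were called higher in all 14 alternatives run. The depth limits Wap, Lalba, Lao1 and Csn1s2a.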
